A study of Mus musculus with 47 samples.

Results

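The effect of adrenalectomy on wild-type skeletal muscle at ZT0 was measured by bulk RNA sequencing in 7 of the 47 libraries of the series, chosen by genotype, operation and time as the labels give them. The 7 libraries came from the tibialis anterior, which lies along the shin and is rich in fast fibres, of 3 adrenalectomised (ADX) and 4 sham-operated wild-type (WT) mice killed at ZT0, where ZT counts hours from lights on. All mice of the series were female C57BL/6 mice fed ad libitum, and each library is labelled as a sample of its own with its age. Both adrenal glands were taken out in operations days apart, the ADX mice then drank saline with glucose, and at least 2 weeks passed before any treatment or collection. The sham-operated mice were 10, 10, 9 and 11 weeks old and the ADX mice 13, 15 and 12 weeks old, so that age and adrenal loss cannot be told apart from these groups alone. WT sham and WT ADX mice killed at ZT12, 4 of each, and RE-RE sham and RE-RE ADX mice killed at ZT0, 4 of each, were used to test whether the effect differed with time or genotype. RE-RE mice carry a Bmal1 (Arntl) gene blocked by a floxed stop cassette together with Syt10-Cre and Hsa-Cre, so that the clock gene is restored in brain and skeletal muscle and stays blocked in other tissues. The levels in adrenalectomised WT mice injected at ZT12 for 10 days with adrenaline (ADX+ADR, 0.5 mg/kg) or with the glucocorticoid drug dexamethasone (ADX+DEX, 5 mg/kg) are given beside some genes as a description. Those mice were 11 to 14 weeks old and were killed at ZT0 like the others. The ZT12 mice were 10 to 12 (sham) and 13 to 17 (ADX) weeks old, and the RE-RE mice 9 to 14 (sham) and 8 to 15 (ADX) weeks old.

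The adrenal cortex makes glucocorticoids, in mice mainly corticosterone, and aldosterone, and the adrenal medulla makes adrenaline. In muscle, glucocorticoids act through the glucocorticoid receptor, a transcription factor that switches on genes of protein breakdown, fuel storage and the clock, and adrenaline acts through beta-adrenergic receptors and cyclic AMP to mobilise glycogen and fat. Corticosterone of mice peaks near the onset of darkness and is low around lights on, the time studied here. Removing both glands takes away all of these hormones, so that the parts of cortex and medulla cannot be told apart in this comparison.

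Values are in FPKM, fragments per kilobase of transcript scaled to the reads of the library, which are corrected for transcript length. Changes are log2 differences of ADX minus sham ± SE from limma, fitted to log2(FPKM + 0.01). The spread behind each SE was shared by all 12 groups of the series. A wide SE or a missing call therefore need not reflect these 7 libraries alone. A gene was called higher or lower at an adjusted p under 0.05, after Benjamini-Hochberg adjustment over 12000 genes. The offset is small, so that changes of genes near 0 FPKM are large on this scale. Values of exactly 0 were listed for 438 of the 12000 genes in at least 1 of the 7 libraries, among them genes of every cell, and a 0 is given as listed at 0 and not as absence. The summed FPKM of a library was 402530 to 416166 in the sham group and 348611 to 386659 in the ADX group. Sham replicate 4 shared no exact low values with the rest of its group, while replicates 1 to 3 shared 45 to 49 and the ADX libraries 34 to 45. Without it 3194 genes were called in place of 3838. Of 12 skeletal muscle markers, among them Acta1, Ckm and Myh4, all were tested and their summed FPKM was 69909 to 77288 in the sham and 64932 to 83446 in the ADX libraries, which overlap. Of 8 adrenal markers listed, Pnmt, the enzyme that makes adrenaline, is the one in the table, at 0, 0.0345, 0.1 and 0.151 FPKM in sham and listed at 0 in all 3 ADX libraries, levels too low to check the operation. Nnt, a mitochondrial transhydrogenase gene known for a deletion in one C57BL/6 substrain, was listed at 0 in all 3 ADX libraries and was at 15.0, 9.74, 7.85 and 7.51 FPKM in the sham libraries. It was also listed at 0 in the 4 WT ADX libraries at ZT12, and was at 10.3 ± 0.141 FPKM (SD, n = 4) in ADX+ADR, 14.3 ± 0.983 FPKM in ADX+DEX and 12.9 ± 3.46 FPKM in RE-RE ADX at ZT0. Wdfy1 was likewise at 0.0574, 0.246 and 0.344 FPKM in the ADX and 2.02, 3.20, 1.80 and 2.35 FPKM in the sham libraries. The WT sham libraries at ZT12 were mixed, with Nnt at 13.5, 0, 0 and 4.97 FPKM and Wdfy1 at 1.89, 4.11, 2.16 and 2.32 FPKM, so that for Nnt, unlike Wdfy1, a sham group holds zeros too. Adrenal loss and a difference of substrain between the mice of the WT groups can therefore not be told apart in any result below.

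Adrenalectomy at ZT0 went with changes in a large share of the muscle transcriptome, and lower values were the more frequent. Of the 12000 genes tested, 32% were called, 12.6% higher (1516 genes) and 19.4% lower (2322 genes), and the median change over all of them was -0.02. At least a 2-fold change was called in 392 genes, 194 of them higher and 198 lower. In 3024 of the 3838 called genes the lowest library of one group was above the highest of the other. The same held for 3909 of all 12000 genes. The share of lower genes went up with the level of the gene. Among genes with a mean of 1 to 10 FPKM over the 7 libraries, 13.3% were called higher and 15.2% lower. At 10 to 100 FPKM 11.4% were higher and 30.2% lower. Among the 314 genes over 100 FPKM 6.37% (20 genes) were higher and 54.5% (171 genes) were lower. With only the 7 libraries in the model the calls were 2130, with 1007 higher and 1123 lower. Counts of list members called, given below, are to be read beside the 12.6% higher and 19.4% lower over all genes. For lists of abundant genes the larger lower shares at their level are the nearer measure.

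**Figure D1:**
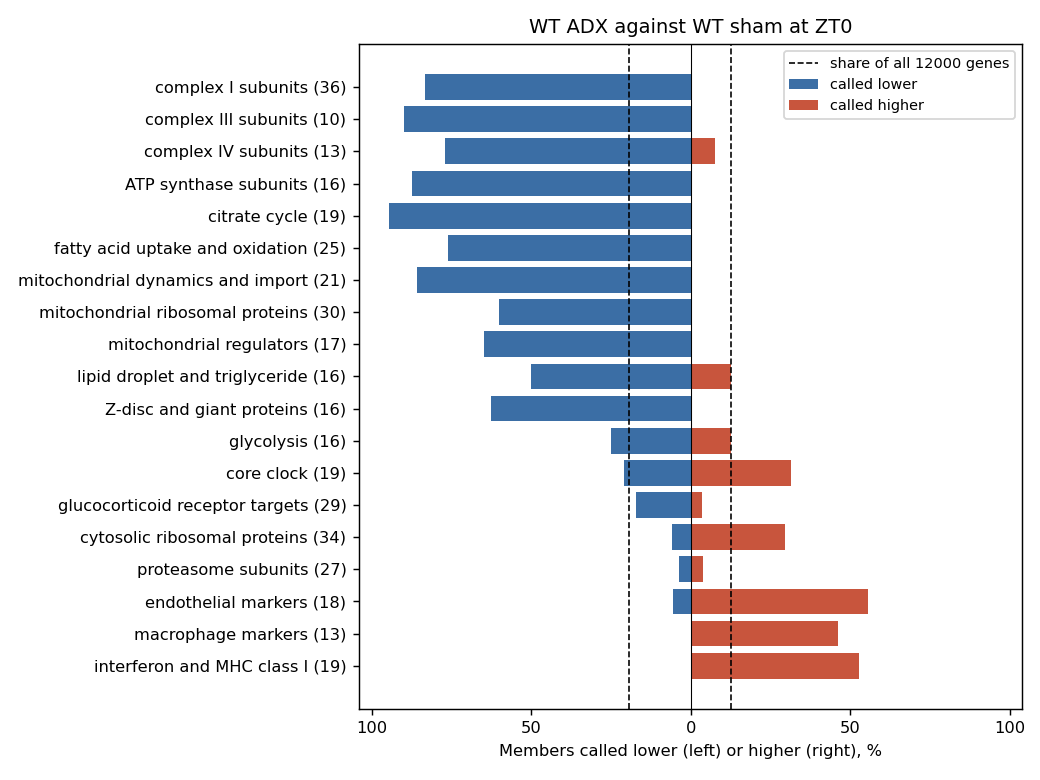
Share of the tested members of each gene list that were called lower (bars to the left) and higher (bars to the right) in WT ADX against WT sham at ZT0, in percent, with the number of tested members behind each name. The dashed lines mark the shares over all 12000 genes, 19.4% lower and 12.6% higher, and the mitochondrial lists extend far past the first line. The lines are not matched to the level of the genes in a list.

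The 10 largest falls among called genes whose groups did not overlap, with a value above 0 in all 7 libraries and a mean of at least 5 FPKM in the higher group, were those of Plin3, Dgat2, Ldhb, Lrrc30, Myh2, mt-Co2, Cdkn1a, Tacc2, Mrln and Rilpl1. Plin3, which encodes a perilipin that coats nascent lipid droplets, was at 15.1, 13.9, 13.3 and 15.4 FPKM in the sham libraries and 0.19, 1.23 and 1.15 FPKM in the ADX libraries. Every ADX library was below 1.5 FPKM and every sham library above 13 FPKM, and the log2 change was -4.45 ± 0.36 (SE, adjusted p = 1.7e-11). Tacc2, a gene of a coiled-coil protein of the cytoskeleton, went from 49.0, 41.9, 27.7 and 47.7 to 14.1, 7.20 and 7.46 FPKM without overlap, a change of -2.15 ± 0.19 (SE, adjusted p = 1.2e-10). Lrrc30 fell from 58.7, 54.1, 38.2 and 38.7 to 12.5, 2.98 and 5.26 FPKM and Rilpl1 from 70.4, 75.0, 60.2 and 68.0 to 33.5, 10.8 and 16.9 FPKM, with changes of -3.00 ± 0.32 and -1.90 ± 0.20 (adjusted p = 6.1e-09 and 8.9e-09). In each of them ADX replicate 1 was the highest of its group and still below all sham libraries. Mrln, the gene of myoregulin, a small inhibitor of the calcium pump, was at 10.4, 13.2, 9.04 and 11.4 and 6.77, 2.24 and 1.56 FPKM, a change of -1.92 ± 0.26 (SE, adjusted p = 8.3e-07). Cdkn1a, the gene of the cell cycle inhibitor p21, was at 6.28, 14.0, 12.0 and 15.4 FPKM in sham and 0.403, 5.46 and 4.53 FPKM in ADX (-2.38 ± 0.46, adjusted p = 0.00014), a change that was -1.18 without ADX replicate 1 and lost the call with only the 7 libraries in the model.

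The 10 largest rises chosen in the same way were smaller in size, up to 2.23 for H2-Q7, beside -4.45 for Plin3. Map3k7cl was at 1.72, 3.30, 5.21 and 2.42 FPKM in the sham and 15.3, 11.3 and 12.8 FPKM in the ADX libraries, a change of 2.16 ± 0.43 (SE, adjusted p = 0.00022). Apln, the gene of apelin, a peptide of sprouting endothelium, was at 3.80, 2.92, 3.20 and 3.61 and 12.1, 11.5 and 8.04 FPKM (1.62 ± 0.44, adjusted p = 0.0046). Bcl6b, a transcriptional repressor made in endothelial cells, was at 7.59, 6.90, 5.25 and 7.53 and 20.1, 16.1 and 20.7 FPKM (1.48 ± 0.26, adjusted p = 4.4e-05). In all 3 genes the lowest ADX library was more than 2-fold above the highest sham library. Ighm, the heavy chain of IgM, rose from 9.52, 10.5, 8.86 and 5.39 to 22.9, 21.2 and 25.2 FPKM (1.47 ± 0.34, adjusted p = 0.0011), and Cxcr4, a chemokine receptor of leukocytes and endothelial cells, from 2.00, 1.80, 2.66 and 1.62 to 5.24, 4.92 and 6.11 FPKM (1.44 ± 0.27, adjusted p = 0.00011). Col6a2, a chain of collagen VI, rose by 1.35 ± 0.26 (adjusted p = 0.00014) and Sec61b, a subunit of the channel that takes proteins into the endoplasmic reticulum, by 1.34 ± 0.27 (adjusted p = 0.00022). The remaining 3 of the 10 largest rises, H2-Q7, H2-Q6 and H2-K1, belong to the class I histocompatibility genes described further on.

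**Figure D2:**
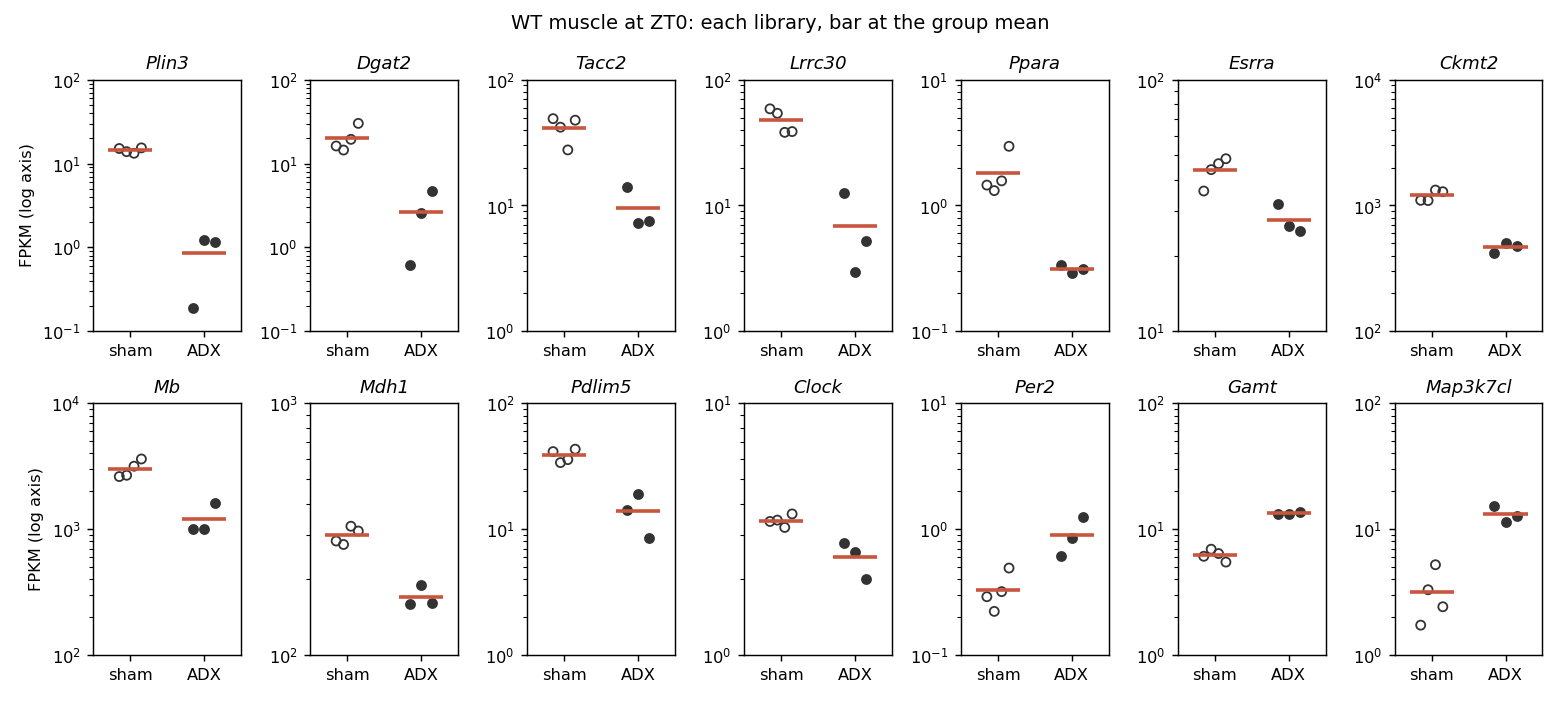
FPKM on a log axis in each of the 4 WT sham (open circles) and 3 WT ADX libraries (filled circles) at ZT0 for 14 genes named in the text, with a bar at each group's mean. The groups do not overlap in any of the panels.

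Nuclear genes of mitochondria were lower together after adrenalectomy. In the 10 lists of nuclear genes for respiratory complexes, the citrate cycle, fatty acid oxidation, mitochondrial ribosomes, import and dynamics and their regulators, 191 genes were tested, of which 151 were called lower, 1 was called higher and 39 were not called. The median change over the 191 was -0.31, beside -0.02 over all genes. Of the 151, 139 had no overlap between the groups, beside 3024 of all 3838 called genes. The 36 subunits of complex I summed to 4048, 4628, 4621 and 4577 FPKM in the sham and 3682, 3546 and 3606 FPKM in the ADX libraries. The 16 ATP synthase subunits summed to 3509, 3883, 3947 and 3838 against 2942, 2918 and 2921 FPKM. In both sums sham replicate 1 was the lowest of its group and above all ADX libraries. As a share of a library's summed FPKM, which was itself lower in ADX, the nuclear subunits of the 5 complexes overlapped between the groups, at 3.29%, 3.74%, 3.89% and 3.80% in sham and 3.14%, 3.36% and 3.42% in ADX.

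Each complex of the respiratory chain, which passes electrons to oxygen and drives the ATP synthase, took part. Of the 36 nuclear subunits of complex I 30 were lower and none higher, with a median change of -0.27. All 4 subunits of complex II (median -0.33), 9 of 10 of complex III (median -0.37), 10 of 13 of complex IV (median -0.31) and 14 of 16 of the ATP synthase (median -0.32) were lower. Atp5g1, a gene of the proton ring of the synthase, went from 24.7, 28.0, 30.7 and 29.1 to 17.8, 17.2 and 17.7 FPKM, a change of -0.68 ± 0.09 (SE, adjusted p = 9.6e-07). Cox6a1 was the single member called higher, at 16.5, 18.4, 19.4 and 17.3 and 20.4, 23.6 and 24.0 FPKM (0.34 ± 0.09, adjusted p = 0.0048). It encodes the form of its subunit made in most tissues, while Cox6a2, the form of heart and skeletal muscle, was called lower (-0.38 ± 0.10, adjusted p = 0.0034).

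Transcripts of the mitochondrial genome itself made up 21.0% to 22.7% of the summed FPKM of the sham libraries and 15.5% to 16.6% of that of the ADX libraries. Of its 13 protein genes, 9 were called lower and none higher. mt-Cytb, the cytochrome b gene, was at 23004, 21711, 21232 and 23196 FPKM in sham and 15041, 14141 and 14388 FPKM in ADX, a change of -0.62 ± 0.10 (SE, adjusted p = 6.3e-06). mt-Nd5 changed by -0.69 ± 0.11 and mt-Nd4 by -0.61 ± 0.09 (adjusted p = 9.5e-06 and 2.5e-06), and the 6 abundant genes among the 9 lay between -0.57 (mt-Nd1) and -0.69. mt-Nd1, mt-Nd2, mt-Co1 and mt-Cytb lost the call with only the 7 libraries in the model. The other 3 called were mt-Co2, mt-Atp6 and mt-Nd4l, and the last pair each lost the call without any 1 of 5 libraries. mt-Co2 was at 15.2, 48.6, 11.5 and 24.8 against 3.33, 3.41 and 4.04 FPKM (-2.58), but mt-Co2, mt-Co3, mt-Atp6, mt-Atp8, mt-Nd3 and mt-Nd4l had FPKM far below those of the other mitochondrial genes, and mt-Co3 was listed at 0 in all 7 libraries, so that their values are not read as transcript levels. Since FPKM are shares of a library's reads, a smaller mitochondrial share raises the values of other genes. With libraries set to equal medians, 1335 genes were called higher and 2668 lower.

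The citrate cycle with the pyruvate dehydrogenase complex, which feed the respiratory chain, had 18 of 19 members lower and none higher, with a median change of -0.44. Mdh1, the cytosolic malate dehydrogenase that carries reducing equivalents towards mitochondria, changed most, from 284, 275, 325 and 311 to 160.1, 189 and 161 FPKM (-0.81 ± 0.08, adjusted p = 2.1e-09). Pdha1, the catalytic subunit of pyruvate dehydrogenase, was at 312, 309, 318 and 329 and 219.8, 208 and 209 FPKM (-0.58 ± 0.07, adjusted p = 3.2e-08). Ogdh, the oxoglutarate dehydrogenase, was at 232, 241, 243 and 252 and 182, 173 and 172 FPKM (-0.46 ± 0.05, adjusted p = 3.8e-09). Within each group of these 3 genes the libraries differed by less than the distance between the groups. Idh3a, Dld, Pdhb and Cs were lower by the fit as well (-0.47, -0.47, -0.45 and -0.35). Suclg2 was the member not called (-0.16 ± 0.07, adjusted p = 0.072).

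Genes that build and connect mitochondria followed. Of 21 genes of mitochondrial fusion, fission, import and carriers 18 were lower and none higher (median -0.28). Mfn1, a fusion protein of the outer membrane, was at 57.0, 55.3, 55.4 and 58.2 FPKM in sham and 36.4, 38.9 and 32.3 FPKM in ADX (-0.66 ± 0.06, adjusted p = 1.8e-09). Slc25a3, the phosphate carrier, was at 173, 174, 185 and 183 and 127, 126 and 119.9 FPKM (-0.52 ± 0.06, adjusted p = 1.7e-08). Hspa9, the chaperone that pulls proteins into the matrix, changed by -0.45 ± 0.05, Mfn2 by -0.39 ± 0.05 and Opa1 by -0.36 ± 0.06 (adjusted p = 3.2e-08, 7.6e-07 and 7.4e-06). Mitochondrial ribosomal proteins had 18 of 30 members lower and none higher (median -0.19), with Mrpl34 at -0.45 ± 0.08 (adjusted p = 5.5e-05). Cytosolic ribosomal proteins did not share this direction, with 10 of 34 higher and 2 lower (median 0.12). Rpl3 rose from 5.21, 6.38, 6.31 and 5.56 to 8.20, 8.92 and 10.0 FPKM (0.63 ± 0.10, adjusted p = 7.8e-06), and Rplp0, a stalk protein of the large subunit, was one of the lower ones (-0.26 ± 0.06, adjusted p = 0.00053). Of 27 proteasome subunits 1 was higher and 1 lower (median -0.01).

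Among 17 regulators of mitochondrial genes 11 were lower and none higher (median -0.41). Ppara, the nuclear receptor that senses fatty acids and turns on their oxidation, was at 1.45, 1.31, 1.57 and 2.96 FPKM in sham and 0.337, 0.293 and 0.315 FPKM in ADX. Sham replicate 4 was the highest of its group, the ADX libraries were within 0.05 FPKM of each other, and the change was -2.42 ± 0.24 (SE, adjusted p = 1.8e-09). Esrra, an orphan receptor of oxidative genes, went from 36.1, 43.9, 46.4 and 48.5 to 31.9, 26.3 and 25.1 FPKM (-0.65 ± 0.09, adjusted p = 1.2e-06), and its relative Esrrb from 1.45, 1.84, 1.91 and 2.14 to 0.179, 0.92 and 0.465 FPKM (-2.06 ± 0.27, adjusted p = 4.8e-07). Perm1, a muscle protein that acts with these receptors, changed by -0.64 ± 0.13, Polrmt, the RNA polymerase of mitochondria, by -0.41 ± 0.07, and Gabpa, an ETS-family factor, by -0.30 ± 0.05 (adjusted p = 0.00019, 2.1e-05 and 6.6e-06). Tfam, which packages mitochondrial DNA, was not called, at 11.7, 11.9, 10.7 and 10.8 and 11.0, 11.0 and 11.0 FPKM (-0.03 ± 0.06, adjusted p = 0.7). Nrf1 was not called either (0.04 ± 0.10, adjusted p = 0.8).

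Estrogen-related receptors bind the letters AAGGTCA, and since Esrra and Esrrb were both lower, the 250 bases before the RefSeq start sites (GRCm38.p6) were searched for these letters on both strands. Of the 191 nuclear mitochondrial genes 164 had a promoter in the table and 9 of these (5.49%) held the letters, beside 3.44% of the 8569 tested genes matched and 4.7% of all 27025 genes of the table. A match describes these letters and says nothing of binding. Windows of 3 mitochondrial genes and 1 lipid droplet gene that hold them are shown, in the direction of the gene, with the letters in capitals as TGACCTT, their form on the gene's own strand. They are those of Acadm (chr3:153944854-153944893, minus strand), the medium-chain fatty acid dehydrogenase, Atp5g3 (chr2:73911340-73911410, minus strand), of the ATP synthase, Perm1 (chr4:156215693-156215763, plus strand) and Abhd5 (chr9:122351515-122351585, plus strand), the activator of triglyceride lipase.
Acadm: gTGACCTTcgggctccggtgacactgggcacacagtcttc
Atp5g3: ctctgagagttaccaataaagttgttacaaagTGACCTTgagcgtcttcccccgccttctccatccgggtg
Perm1: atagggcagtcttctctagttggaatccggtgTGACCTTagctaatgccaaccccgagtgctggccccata
Abhd5: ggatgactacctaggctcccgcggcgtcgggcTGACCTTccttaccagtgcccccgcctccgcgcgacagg
Acadm was at 80.0, 74.2, 70.4 and 77.7 FPKM in sham and 58.1, 54.1 and 54.2 FPKM in ADX (-0.45 ± 0.09, adjusted p = 0.00013), and Atp5g3 at 271, 302, 315 and 306 and 225, 229 and 228 FPKM (-0.39 ± 0.07, adjusted p = 2.4e-05). Perm1 was at 109, 119, 127 and 125 and 72.9, 85.2 and 73.3 FPKM. The 3 mitochondrial windows were picked among the 9 after the values were seen. Of the 9 genes 7 were called lower and 2 were not called, beside 151 called lower among all 191. Genes with the letters were thus not called lower more often than the whole set.

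Uptake and oxidation of fatty acids, a main fuel of resting muscle, had 19 of 25 members lower and none higher (median -0.46). Slc27a1, a fatty acid transporter of the cell surface, was at 36.7, 35.4, 30.8 and 35.5 FPKM in sham and 22.5, 19.5 and 17.4 FPKM in ADX (-0.81 ± 0.12, adjusted p = 3.3e-06). Acadvl, the very long-chain dehydrogenase of the first step of oxidation, was at 164, 157, 176 and 172 and 108, 105 and 109.5 FPKM (-0.64 ± 0.10, adjusted p = 5.6e-06). Etfdh, which hands the electrons of this pathway to ubiquinone, was at 26.9, 25.7, 24.7 and 27.6 and 16.7, 17.1 and 15.1 FPKM (-0.69 ± 0.10, adjusted p = 2.5e-06). No ADX library of the 3 genes reached the lowest sham library. Cd36, Cpt1b and Slc25a20, which bring fatty acids into the cell and the mitochondrion, changed by -0.64 ± 0.12, -0.58 ± 0.14 and -0.60 ± 0.14 (adjusted p = 0.00012, 0.0021 and 0.0014). Ucp3, an uncoupling protein, was not called, and its sham libraries were far apart at 55.0, 53.4, 23.5 and 17.5 FPKM. Pdk4, the kinase that turns glucose oxidation down in fasting, was likewise at 365, 332, 118 and 92.2 FPKM in sham and 274, 222 and 174 FPKM in ADX, with a change of 0.20 ± 2.98 (SE, adjusted p = 0.97). This SE rests on the spread over all 12 groups and is wider than the libraries listed show. Enzymes of ketone and branched-chain amino acid use had 10 of 11 members lower and none higher, among them Oxct1, the enzyme that activates ketone bodies (182, 161, 162 and 159 and 108, 123 and 109 FPKM, -0.55 ± 0.06, adjusted p = 6.1e-09). Bdh1, the hydroxybutyrate dehydrogenase, was at 9.28, 8.79, 8.02 and 11.1 FPKM in sham and listed at 0, 0.977 and 0 FPKM in ADX.

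Lipid droplets hold triglyceride as a reserve, and 8 of 16 genes of their coat, synthesis and breakdown were lower and 2 higher (median -0.73). Beside Plin3, the synthesis enzyme Dgat2 was at 16.2, 14.5, 19.4 and 30.2 FPKM in sham and 0.61, 2.59 and 4.67 FPKM in ADX (-3.30 ± 0.36, adjusted p = 1.2e-08). Lpin1, which makes the diacylglycerol that Dgat2 uses, was at 78.3, 68.1, 63.7 and 71.2 and 39.5, 27.6 and 27.2 FPKM (-1.18 ± 0.12, adjusted p = 4.6e-09). Both enzymes were below every sham library in every ADX library. On the side of breakdown, Pnpla2, the triglyceride lipase, was lower (83.9, 83.3, 77.6 and 76.5 against 53.1, 38.9 and 54.3 FPKM, -0.73 ± 0.14, adjusted p = 0.00014), as was its activator Abhd5 (14.4, 13.9, 13.9 and 14.7 against 10.4, 10.5 and 10.3 FPKM, -0.45 ± 0.05, adjusted p = 6.1e-09). Mgll, which splits the last fatty acid from glycerol, was higher at 15.3, 18.1, 16.0 and 15.4 against 20.8, 27.5 and 26.2 FPKM (0.61 ± 0.16, adjusted p = 0.0028). Plin2, the perilipin of most tissues, was not called although its groups did not overlap (8.81, 8.63, 9.17 and 8.88 and 9.53, 9.43 and 11.1 FPKM, 0.17 ± 0.09, adjusted p = 0.15). Plin5, which ties droplets to mitochondria, was listed at 0 in all 3 ADX libraries and at 7.47, 5.08, 0 and 2.61 FPKM in sham, where replicate 3 was at 0 too. Of 7 adipocyte markers none was called, and their sum was 60.1 to 85.2 FPKM in sham and 66.0 to 95.7 FPKM in ADX, which overlap. Adipoq was at 1.88, 1.96, 1.96 and 0.677 and 1.09, 1.41 and 2.63 FPKM.

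In lipid synthesis, 4 of 13 genes tested were lower and 3 higher. Acacb, the acetyl-CoA carboxylase of muscle, whose product holds back fatty acid oxidation, was at 44.1, 47.6, 42.4 and 50.1 and 33.3, 28.6 and 24.5 FPKM (-0.69 ± 0.10, adjusted p = 1.2e-06). Scd1, a desaturase, was at 3.35, 9.13, 8.21 and 3.09 FPKM in sham and listed at 0 in all ADX libraries. It was 1 of 4 genes with at least 3 FPKM in every sham library that were listed at 0 in all ADX libraries, the others being Nnt, Lrg1 and Aldh1a1, while no gene showed the reverse. Lrg1, a secreted glycoprotein, was at 4.86, 3.42, 4.48 and 4.19 FPKM and Aldh1a1, which makes retinoic acid, at 50.3, 17.9, 34.8 and 25.1 FPKM in the sham libraries. In the injected mice, Lrg1 was at 11.0 ± 0.695 FPKM in ADX+ADR and 81.5 ± 7.54 FPKM in ADX+DEX, and Aldh1a1 at 51.3 ± 4.28 and 274 ± 26.4 FPKM (mean ± SD, n = 4 each).

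Glycolysis, the main path of fast fibres, had 4 of 16 genes lower (25%) and 2 higher (12.5%), shares near those over all genes, with a median change of -0.12, and most of its abundant enzymes were not called, among them Pygm of the glycogen list (-0.06 ± 0.09, adjusted p = 0.69), Aldoa, Eno3, Pkm and Ldha. Aldoa was at 5478, 5824, 5448 and 5193 FPKM in sham and 5713, 4412 and 4511 FPKM in ADX, with overlap between the groups. Ldhb, the lactate dehydrogenase subunit of oxidative tissue, was at 80.4, 92.4, 72.6 and 98.5 FPKM in sham and 1.28, 27.3 and 26.3 FPKM in ADX. ADX replicate 1 was far below the other ADX libraries, and the change of -3.13 ± 0.47 (SE, adjusted p = 3.9e-06) was -1.67 without it and lost the call with only the 7 libraries in the model. Glycogen handling had 5 of 14 lower and 2 higher, with Gbe1, the branching enzyme, at 25.4, 23.9, 29.1 and 28.9 and 11.6, 9.05 and 7.94 FPKM (-1.51 ± 0.15, adjusted p = 3.8e-09). Gys1, the synthase, changed by -0.47 ± 0.07 (adjusted p = 1.9e-06). Phka1, a regulatory subunit of phosphorylase kinase, was at 159.6, 155, 140.0 and 151 and 115, 67.5 and 70.8 FPKM (-0.88 ± 0.15, adjusted p = 3.1e-05). Slc2a4, the insulin-regulated glucose transporter, was lower (-0.69 ± 0.09, adjusted p = 3.8e-07), and 5 of 14 genes of insulin action were lower and none higher.

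Of 12 genes of creatine, purine and AMP metabolism 4 were lower and 3 higher (median -0.11). Ckmt2, the creatine kinase of muscle mitochondria, was at 1099, 1094, 1326 and 1287 FPKM in the sham and 416, 504 and 474 FPKM in the ADX libraries. The highest ADX library was more than 2-fold below the lowest sham library, and the change was -1.37 ± 0.14 (SE, adjusted p = 3.1e-09). Gamt, an enzyme of creatine synthesis, was higher, at 6.09, 6.93, 6.40 and 5.48 and 13.2, 13.3 and 13.7 FPKM (1.11 ± 0.17, adjusted p = 4.7e-06). Mb and Fndc5 come from other lists and were named for their small p-values, and Coq8a was named for the difference of its effect between times. Mb, the gene of the oxygen carrier myoglobin, was at 2621, 2684, 3169 and 3616 and 1011, 1011 and 1617 FPKM (-1.34 ± 0.19, adjusted p = 1.3e-06). Fndc5, which encodes the precursor of irisin, was at 51.7, 54.0, 52.4 and 59.6 and 30.2, 28.6 and 30.4 FPKM (-0.87 ± 0.10, adjusted p = 2.6e-08). Coq8a, a kinase-like protein of ubiquinone synthesis, was at 203, 225, 233 and 228 and 131, 144 and 129 FPKM (-0.72 ± 0.08, adjusted p = 1.2e-08). The groups did not overlap in Mb, Fndc5 or Coq8a.

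The shares of the fast myosin genes Myh4 and Myh2 differed between the groups at ZT0. Myosin heavy chains set the speed of a fibre, with Myh4 the fastest, then Myh1, then Myh2, and Myh7 the slow form. Myh2 was at 669, 308, 458 and 539.9 FPKM in sham and 85.0, 163 and 19.7 FPKM in ADX, a change of -2.87 ± 0.44 (SE, adjusted p = 4.7e-06). Its share of the summed FPKM of the 4 adult genes was 6.72%, 3.02%, 5.25% and 5.79% in sham and 0.809%, 1.93% and 0.263% in ADX. The share of Myh4 was 82.2%, 79.5%, 72.4% and 68.1% in sham and 88.8%, 86.6% and 88.4% in ADX, again without overlap. At ZT12 the share of Myh2 was 2.32%, 2.50%, 1.05% and 1.37% in sham and 1.85%, 0.377%, 0.444% and 0.879% in ADX. Sham replicates 7 and 8 at ZT12 thus lay within the range of the ADX libraries at ZT0, so that sham muscle also reached such low shares. Myh1 was lower by the fit (-0.85 ± 0.20, adjusted p = 0.0012), but at 1095, 1783, 1943 and 2427 FPKM in sham and 1096, 965 and 846 FPKM in ADX the lowest sham library met the highest ADX library, and the call was lost with only the 7 libraries in the model. Myh4 itself was not called (0.10 ± 0.13, adjusted p = 0.61). Over all fibre-type contractile genes, 5 of 21 were lower (23.8%) and 2 higher (9.52%), shares near those over all genes, with a median of -0.10. The fast troponins Tnnt3, Tnni2 and Tnnc2 were not called.

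**Figure D3:**
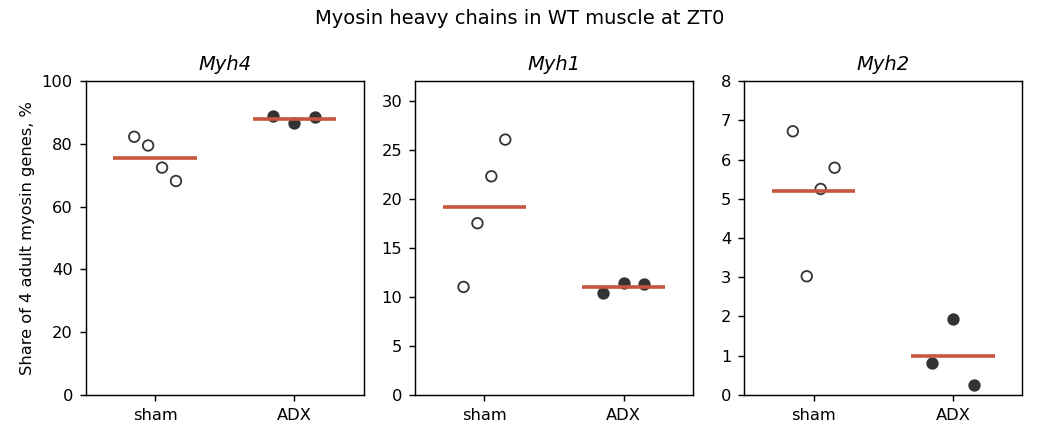
Share of the summed FPKM of Myh4, Myh1, Myh2 and Myh7 taken by Myh4, Myh1 and Myh2 in each WT sham and WT ADX library at ZT0, in percent, on separate axes that start at 0, with a bar at each group's mean. The ADX libraries lie above the sham libraries for Myh4 (86.6% to 88.8%) and below them for Myh2 (0.263% to 1.93%), and the groups overlap for Myh1.

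Proteins of the Z-disc, the plate that anchors the thin filaments, and giant scaffolds had 10 of 16 genes lower and none higher (median -0.33). Pdlim5, an adaptor of the Z-disc, was at 41.4, 33.8, 35.7 and 43.3 FPKM in sham and 14.3, 19.1 and 8.47 FPKM in ADX (-1.53 ± 0.18, adjusted p = 4.6e-08). Myot, the gene of myotilin, was at 563, 608, 632 and 655 and 465, 473 and 322 FPKM (-0.57 ± 0.11, adjusted p = 9e-05). The stretch-responsive genes Ankrd2 and Csrp3 were not called, and ADX replicate 2 was above all other libraries in both (for Csrp3 69.8, 259.8 and 26.4 FPKM in ADX and 60.8, 107, 163 and 166 FPKM in sham). Genes of atrophy had 5 of 19 lower (26.3%, beside 19.4% over all genes) and none higher. Fbxo32, the atrophy ubiquitin ligase atrogin-1, was at 48.1, 80.8, 19.4 and 42.7 and 22.5, 14.4 and 19.3 FPKM, and sham replicate 3 lay within the range of the ADX libraries (-1.20 ± 0.32, adjusted p = 0.0039, lost with only the 7 libraries in the model). Trim63, the other ligase known from wasting muscle, was not called (-0.08 ± 0.17, adjusted p = 0.76). In autophagy, Map1lc3a, the coat protein of autophagosomes, was at 75.1, 82.1, 88.1 and 92.5 and 54.9, 38.7 and 41.9 FPKM (-0.92 ± 0.11, adjusted p = 7.5e-08), and 6 of 19 genes were lower and none higher.

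Of 29 direct targets of the glucocorticoid receptor 5 were lower and 1 higher, and the 17.2% lower is near the share over all genes. The sham libraries were far apart in the summed FPKM of these genes, at 841, 819, 438 and 492, with the ADX libraries between them at 655, 551 and 489. The median change was -0.05, and -0.13 over the 19 members with no value of 0 in the 7 libraries. Klf9 and Klf15, transcription factors induced by glucocorticoids, were lower. Klf9 was at 44.7, 38.5, 33.5 and 38.4 FPKM in sham and 28.9, 23.5 and 27.2 FPKM in ADX (-0.55 ± 0.10, adjusted p = 7.9e-05). Klf15 was at 10.1, 12.4, 6.98 and 9.66 and 7.36, 4.32 and 5.01 FPKM, where sham replicate 3 fell within the range of the ADX libraries (-0.82 ± 0.16, adjusted p = 0.00011, lost with only the 7 libraries in the model). Tsc22d3, which encodes the anti-inflammatory protein GILZ, was not called at 35.3, 28.4, 23.2 and 27.7 and 31.5, 24.3 and 27.0 FPKM (-0.05 ± 0.14, adjusted p = 0.83). Sgk1 and Glul were not called either (-0.35 ± 0.22 and -0.28 ± 0.22, adjusted p = 0.24 and 0.36). Fkbp5, Mt2, Lcn2 and Pik3r1 were listed at 0 in all 7 libraries and give no measure here, while the ADX+DEX libraries had 91.9 ± 8.23 FPKM of Fkbp5. Sult1a1, a sulfotransferase, was the member called higher (7.15, 6.55, 6.80 and 6.41 and 10.3, 8.28 and 11.9 FPKM, 0.58 ± 0.12, adjusted p = 0.00051). Of 10 genes for corticosteroid receptors, their partners and local enzymes, Ncor1 was called lower (-0.22 ± 0.06, adjusted p = 0.0035, lost with only the 7 libraries in the model and without ADX replicate 3) and none was higher. Of 14 genes of adrenergic and cyclic AMP signalling 4 were lower (28.6%, beside 19.4% over all genes) and none higher. Among the lower ones were the adenylyl cyclases Adcy9 (6.21, 6.89, 5.53 and 6.71 and 4.54, 4.29 and 2.88 FPKM, -0.72 ± 0.13, adjusted p = 5.9e-05) and Adcy2 (-0.56 ± 0.10, adjusted p = 4.3e-05).

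The circadian clock runs on Arntl and Clock, which switch on Per, Cry and Nr1d genes that in turn hold them back. Arntl and Clock also switch on Dbp, an output gene, and at ZT0 Arntl is near its high and Per and Dbp near their low point. Of 19 clock genes 6 were higher and 4 lower. On the activating side, Arntl was at 14.2, 18.8, 16.2 and 18.0 FPKM in sham and 9.28, 7.14 and 5.82 FPKM in ADX, without overlap. The fit did not call Arntl (-1.20 ± 0.87, adjusted p = 0.31), though it did on log2(FPKM + 1), on log2(FPKM + 0.1) and with only the 7 libraries in the model. Clock was called lower (3.39, 3.44, 3.21 and 3.64 and 2.78, 2.57 and 2.01 FPKM, -0.49 ± 0.10, adjusted p = 0.00031), as was Nfil3, a repressor of Dbp-type targets (-1.85 ± 0.35, adjusted p = 0.00012). On the repressing and output side, Per2 was at 0.29, 0.222, 0.319 and 0.491 and 0.612, 0.845 and 1.24 FPKM (1.42 ± 0.29, adjusted p = 0.00027) and Per3 at 2.31, 1.71, 1.66 and 2.55 and 3.57, 3.50 and 4.88 FPKM (0.96 ± 0.16, adjusted p = 1.5e-05). Tef, a relative of Dbp, was at 25.9, 22.6, 21.3 and 22.1 and 31.7, 26.8 and 28.3 FPKM (0.33 ± 0.09, adjusted p = 0.0026). Dbp was listed at 0, 0, 0 and 11.9 FPKM in sham and 4.01, 4.13 and 13.1 FPKM in ADX, and although it was called (6.68), sham replicate 4 was within the ADX range and the call was lost with only the 7 libraries in the model. Cry1, Nr1d1, Nr1d2, Rora and Bhlhe40 were not called. Tspan4, from a list of rhythmic muscle genes, was at 2.08, 2.90, 2.55 and 2.69 and 4.73, 4.42 and 5.37 FPKM (0.92 ± 0.10, adjusted p = 1.9e-08). Arntl and Clock bind the E-box letters CACGTG, which 5 of 16 clock promoters held in the 250 bases searched on both strands (31.2%), beside 10.2% of the tested genes matched and 6.86% of all genes in the table. The 5 were Bhlhe41, Ciart, Cry1, Per1 and Tef, and the called genes Clock, Nfil3, Per2, Per3 and Dbp were not among them. Windows were looked for in Per2, Dbp, Tef, Per3, Nr1d1, Hlf and Nfil3, and Tef was the only gene of these that gave any. Like Per2 and Clock, Tef was called in both the effect and its difference between times. It holds the letters before both of its start sites on the plus strand, at chr15:81802514-81802583 and chr15:81811244-81811313, shown with the letters in capitals.
Tef, first window: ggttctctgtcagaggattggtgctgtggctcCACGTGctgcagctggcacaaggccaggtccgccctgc
Tef, the other window: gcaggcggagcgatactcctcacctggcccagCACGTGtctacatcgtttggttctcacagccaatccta

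Endothelial genes were higher in part. Of 18 markers 10 were higher and 1 lower (median 0.53), and their sum was 241.8, 264.1, 245.9 and 248.4 FPKM in sham and 323.9, 358.7 and 399.8 FPKM in ADX. In bulk tissue more cells of a type and more RNA per cell cannot be told apart. Erg, a transcription factor of endothelium, was at 5.02, 5.32, 5.70 and 5.02 FPKM in sham and 9.65, 8.60 and 9.89 FPKM in ADX (0.83 ± 0.15, adjusted p = 4.1e-05). Robo4, a receptor of vessel walls, was at 7.93, 8.12, 7.80 and 7.39 and 12.5, 12.8 and 14.5 FPKM (0.77 ± 0.12, adjusted p = 8.6e-06), and Pecam1, an adhesion protein of all endothelium, at 21.5, 22.9, 21.2 and 21.5 and 30.0, 32.1 and 34.6 FPKM (0.57 ± 0.10, adjusted p = 3.2e-05). The 3 genes had narrow groups that did not overlap. Flt1, the decoy receptor for VEGF, was the one called lower, at 8.95, 8.59, 7.94 and 8.35 and 5.32, 5.76 and 5.89 FPKM (-0.58 ± 0.11, adjusted p = 6.8e-05), and Kdr, the signalling receptor, was not called (0.02 ± 0.14, adjusted p = 0.94). Of the ligands, Vegfb was lower at 70.2, 67.3, 71.0 and 75.7 and 47.8, 46.4 and 41.6 FPKM (-0.65 ± 0.07, adjusted p = 3.1e-09) and Vegfa by -0.28 ± 0.11 (adjusted p = 0.049), a call lost under several alternatives. Among 12 markers of pericytes and smooth muscle 2 were higher, Pdgfrb and Cspg4 (0.47 ± 0.11 and 0.59 ± 0.16, adjusted p = 0.0015 and 0.0035), and 2 lower, Myh11 and Des (-0.64 ± 0.16 and -0.23 ± 0.07, adjusted p = 0.0019 and 0.01, the latter lost without ADX replicate 2 and with only the 7 libraries in the model).

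Class I histocompatibility and interferon-response genes had 10 of 19 members higher and none lower (median 0.94), and 1 library stood above the rest. H2-K1, which presents peptides to T cells, was at 29.6, 34.6, 31.1 and 24.0 FPKM in sham and 58.4, 54.5 and 151 FPKM in ADX (1.41 ± 0.28, adjusted p = 0.0002). B2m, its light chain, was at 116, 129, 118 and 101 and 191, 191 and 507 FPKM (1.20 ± 0.28, adjusted p = 0.0011). ADX replicate 3 was more than 2-fold above ADX replicates 1 and 2 in both genes, and replicates 1 and 2 were still above every sham library. Without ADX replicate 3, H2-T23, H2-Q4, Psmb8 and Bst2 lost the call, while H2-K1, H2-D1, H2-Q6, H2-Q7, B2m and Ifi27 remained called, those of H2-K1, H2-D1 and B2m with smaller changes of 0.93, 0.70 and 0.73 (adjusted p = 0.0497 for B2m). With only the 7 libraries in the model B2m, H2-D1, H2-T23, Psmb8 and Bst2 lost the call. Ifi27 was at 12.1, 13.2, 13.7 and 11.6 and 17.3, 18.2 and 28.4 FPKM (0.72 ± 0.13, adjusted p = 4.1e-05). H2-Q6 and H2-Q7 are near-identical copies that can share reads, so that their separate values are uncertain. Irf7 and Isg15, core genes of the interferon response, were not called (0.78 ± 0.32 and 0.84 ± 0.66, adjusted p = 0.061 and 0.35), and ADX replicate 3 was the highest library in both (2.66, 2.37 and 6.10 FPKM in ADX for Irf7, 2.09, 2.42, 2.36 and 1.23 FPKM in sham).

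**Figure D4:**
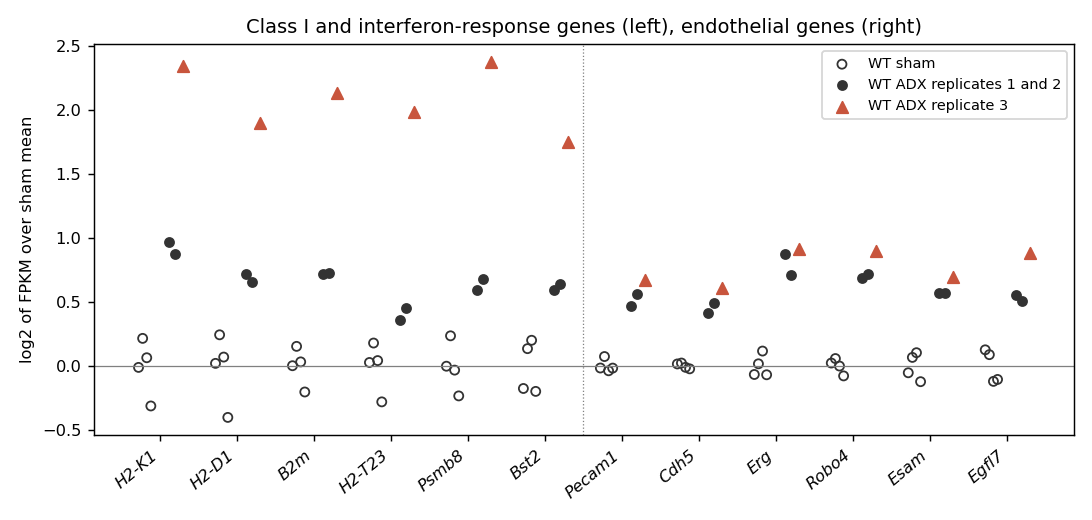
Log2 of each library's FPKM against the mean of the 4 WT sham libraries for 6 class I and interferon-response genes and 6 endothelial genes, with open circles for sham, filled circles for ADX replicates 1 and 2 and triangles for ADX replicate 3. The triangles stand apart from the other ADX libraries in the first 6 genes and lie close to them in the endothelial genes.

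Macrophage markers had 6 of 13 members higher and none lower (median 0.81), and ADX replicate 3 was again high. Their sum was 29.5 to 40.2 FPKM in sham and 40.1, 48.8 and 87.7 FPKM in ADX, so that the groups met at 1 library. Adgre1, the macrophage surface protein F4/80, was at 0.408, 0.189, 0.248 and 0.197 and 0.57, 0.595 and 1.59 FPKM (1.68 ± 0.38, adjusted p = 0.00083). C1qa, a complement gene of tissue macrophages, was at 3.53, 3.32, 3.77 and 3.16 and 4.30, 7.0 and 12.5 FPKM (1.07 ± 0.29, adjusted p = 0.0047), a call lost without ADX replicate 3 and with only the 7 libraries in the model. Of the 10 lymphocyte markers listed, none is in the table, so that the rise of Ighm has no such marker beside it. Fibroblast and matrix genes had 4 of 20 higher (20%, beside 12.6% over all genes) and none lower. Their sum was 296.0 to 578.4 FPKM in sham and 618.6 to 1005 FPKM in ADX. Col6a1 was at 8.54, 11.0, 18.2 and 13.3 and 21.9, 24.8 and 30.9 FPKM (1.06 ± 0.27, adjusted p = 0.0027), while Pdgfra and Dcn, genes that mark the cells themselves, were not called (0.12 ± 0.18 and 0.33 ± 0.17, adjusted p = 0.64 and 0.13). Of 7 Schwann cell genes 4 were lower (median -0.55), but their sum overlapped between the groups, at 30.8, 41.5, 34.2 and 38.0 FPKM in sham and 19.5, 34.7 and 36.3 FPKM in ADX. Sox10, their transcription factor, was at 0.444, 0.6, 0.366 and 0.612 and 0.0358, 0.264 and 0.202 FPKM (-1.86 ± 0.34, adjusted p = 7.8e-05, -1.07 without ADX replicate 1 and lost with only the 7 libraries in the model). Whether the cell types' shares had a part in the falls of muscle genes was not tested. The 3 of 12 muscle markers called lower were Mb, Myh1 and Des, and none was higher.

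Of 16 growth factor and IGF-axis genes 3 were higher (18.75%) and 5 lower (31.25%), beside 12.6% and 19.4% over all genes. Igfbp3, a binding protein of IGF1, was at 2.62, 2.79, 3.88 and 3.64 FPKM in sham and 7.43, 5.83 and 5.84 FPKM in ADX (0.99 ± 0.16, adjusted p = 1.7e-05). Il15, a cytokine that muscle releases, was at 6.26, 6.43, 5.96 and 6.69 and 2.56, 3.82 and 4.99 FPKM (-0.79 ± 0.16, adjusted p = 0.00018). Fgf2 was at 2.16, 2.16, 2.23 and 2.01 and 1.70, 0.949 and 1.33 FPKM (-0.73 ± 0.15, adjusted p = 0.00035). The groups did not overlap for any of the 3 factors. Got1, the cytosolic aspartate aminotransferase, from a list of polyamine and amino acid genes of which 5 of 14 were lower and 2 higher, was at 207, 224, 216 and 237 and 120.0, 151 and 147 FPKM (-0.67 ± 0.10, adjusted p = 6.5e-06). Of 20 antioxidant genes 4 were lower (20%) and 2 higher (10%), shares near those over all genes. Among them Sod2, the superoxide dismutase of mitochondria, was at 82.6, 81.0, 86.2 and 84.1 and 61.4, 61.9 and 57.2 FPKM (-0.47 ± 0.06, adjusted p = 9.2e-08).

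The effect at ZT0 was then set against that of ZT12, measured in other mice, and the difference of the effects passed the test in 1.54% of genes, 0.875% higher and 0.667% lower (80 genes) at ZT0 than at ZT12. In the mitochondrial lists 3 of 191 genes passed, all lower, and the median change there was -0.31 at ZT0 and -0.21 at ZT12. The 29 glucocorticoid receptor targets had 9 genes with a higher and 1 with a lower effect at ZT0, and over the 19 members with no value of 0 in the 15 WT libraries of both times their median was -0.13 at ZT0 and -0.64 at ZT12. Sult1a1 was at 6.73 ± 0.327 and 10.2 ± 1.80 FPKM in sham and ADX at ZT0 (SD, n = 4 and 3), and at 17.2 ± 1.95 and 8.74 ± 0.857 FPKM at ZT12 (n = 4 each), a difference of 1.55 ± 0.17 (SE, adjusted p = 1.5e-07). Nfkbia, the inhibitor of NF-kappaB, was at 10.6 ± 1.51 and 14.4 ± 0.785 FPKM at ZT0 and 25.0 ± 7.28 and 10.3 ± 1.04 FPKM at ZT12 (1.68 ± 0.25, adjusted p = 5.6e-05). Both genes were higher in sham at ZT12 than at ZT0 and lower in ADX than in sham at ZT12. Tns2, Snrk and Serinc3 had the same pattern (0.66 ± 0.11, 0.64 ± 0.10 and 0.70 ± 0.12, adjusted p = 0.00025, 0.00025 and 0.00047) and were, like Nfkbia, not called at ZT0 alone. The 19 clock genes had 4 genes with a higher and 2 with a lower effect at ZT0. Per2 was at 0.33 ± 0.114 and 0.899 ± 0.318 FPKM at ZT0 and 6.59 ± 0.259 and 3.55 ± 0.408 FPKM at ZT12, a difference of 2.31 ± 0.39 (SE, adjusted p = 0.00063), and Tef and Clock differed by 0.56 ± 0.12 and -0.65 ± 0.14 (adjusted p = 0.0051 and 0.0063, the latter lost when the model held just the groups compared). Among lower effects at ZT0, Ankrd33b was at 11.5 ± 0.627 and 7.40 ± 0.211 FPKM at ZT0 and 6.81 ± 0.513 and 7.33 ± 0.389 FPKM at ZT12 (-0.74 ± 0.11, adjusted p = 0.0001), and Coq8a was at 195 ± 24.5 and 182 ± 11.0 FPKM at ZT12 (-0.62 ± 0.11, adjusted p = 0.0007). Ypel2, Dyrk2 and Tacc2 differed by -1.31 ± 0.22, -0.98 ± 0.19 and -1.33 ± 0.26 (adjusted p = 0.00053, 0.0023 and 0.0024, the last lost when the model held just the groups compared). With genes listed at 0 in any of the groups left out, 131 genes passed in place of 185, and without sham replicate 8 at ZT12, which shared no exact low values with its group, 118 did.

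The effect in WT muscle at ZT0 was also set against that in RE-RE muscle at ZT0, and here 10.7% of genes differed, 3.29% (395 genes) with a higher and 7.38% (885 genes) with a lower effect in WT. In the mitochondrial lists 82 of 191 genes passed, all with a lower effect in WT, and the median change was -0.31 in WT and -0.04 in RE-RE. For the nuclear subunits of the respiratory complexes these medians were -0.31 and -0.002, with 43 of 79 genes past the test, and for fatty acid oxidation -0.46 and -0.27, with 2 of 25 genes past it. Plin3 was at 11.9 ± 4.77 FPKM in RE-RE sham and 13.2 ± 2.79 FPKM in RE-RE ADX (SD, n = 4 each), and the effects differed by -4.64 ± 0.49 (SE, adjusted p = 3.3e-08). Ckmt2 was at 947 ± 196 and 903 ± 118 FPKM in RE-RE, a difference of -1.32 ± 0.19 (SE, adjusted p = 1.6e-05), and Ppara at 2.48 ± 0.832 and 2.30 ± 0.0919 FPKM, a difference of -2.37 ± 0.32 (SE, adjusted p = 5.8e-06). In RE-RE these 3 genes had overlapping groups, unlike in WT. Esrra, Mdh1, Lpin1 and Tacc2 differed by -0.64 ± 0.12, -0.69 ± 0.11, -0.78 ± 0.17 and -2.44 ± 0.26 (adjusted p = 0.0007, 7.1e-05, 0.002 and 3.3e-08). Ppargc1a, the coactivator of oxidative genes, showed no called difference, at 6.97 ± 1.37 and 4.51 ± 0.382 FPKM in RE-RE and 7.93 ± 0.884 and 5.17 ± 0.199 FPKM in WT (0.00 ± 0.17, adjusted p = 0.99). Vegfb, Dmac2 and Slc38a10 had lower effects in WT (-0.69 ± 0.09, -0.70 ± 0.09 and -0.88 ± 0.12, adjusted p = 2.9e-06, 2.9e-06 and 3.4e-06). Higher effects in WT were found for Ebna1bp2 (0.40), S100a16 (0.41), Tbrg1 (0.42), Anxa7 (0.62) and Jak1 (0.40), with adjusted p from 5.1e-05 to 0.0003. Of the endothelial markers 4 had a higher and 1 a lower effect in WT, among them Pecam1 at 19.1 ± 1.83 and 20.4 ± 0.626 FPKM in RE-RE (0.47 ± 0.13, adjusted p = 0.019, lost without WT ADX replicate 3). The RE-RE groups hold Nnt in both conditions, so that a difference between genotypes and one between substrains of the WT ADX mice cannot be told apart here, and 1 RE-RE sham and 2 RE-RE ADX libraries shared at most 1 exact low value with their group.

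**Figure D5:**
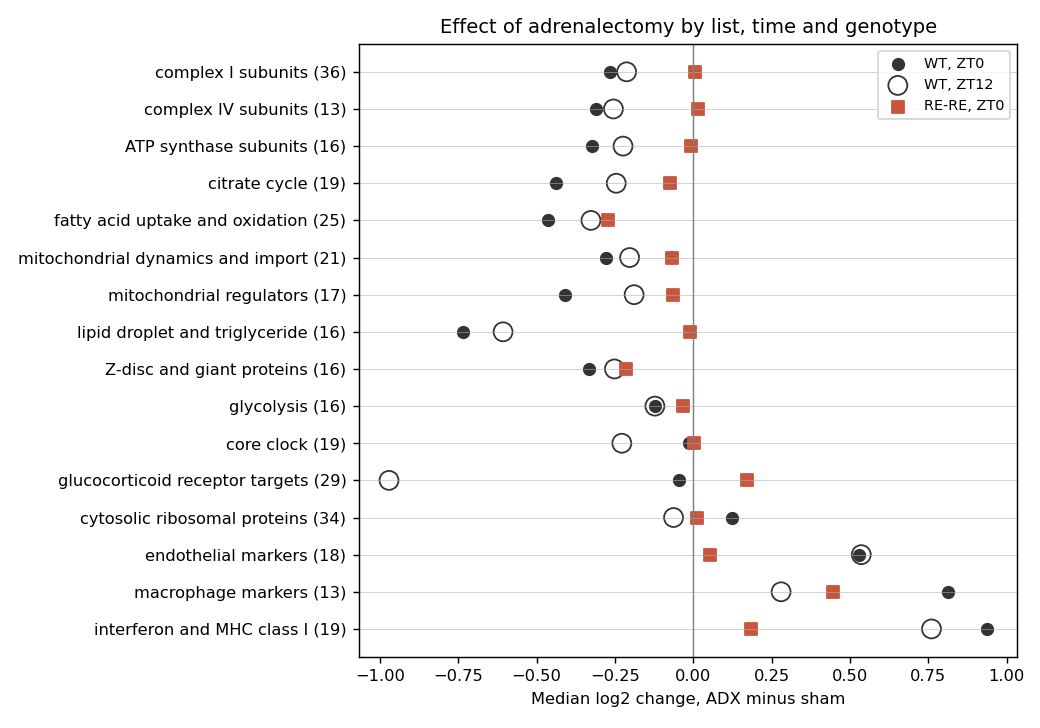
Median log2 change of ADX minus sham over the tested members of 16 gene lists (their number behind each name), members with values of 0 included, for WT at ZT0 (filled circles), WT at ZT12 (open circles) and RE-RE at ZT0 (squares). For the mitochondrial lists the WT medians at ZT0 and ZT12 lie below 0 and the RE-RE medians lie closer to 0, that of fatty acid uptake and oxidation, at -0.27, being the farthest from it.

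The levels in injected ADX mice at ZT0 are given side by side with the others, and no test was made with them. Ckmt2 was at 465 ± 44.9 FPKM in ADX (SD, n = 3), 930.1 ± 40.8 FPKM in ADX+ADR and 1389 ± 139 FPKM in ADX+DEX (n = 4 each), and at 1202 ± 122 FPKM in sham (n = 4). Plin3 was at 0.858 ± 0.58, 18.4 ± 1.09, 52.1 ± 3.88 and 14.4 ± 1.01 FPKM in the same order, and Ppara at 0.315 ± 0.0222, 2.29 ± 0.16, 3.60 ± 0.561 and 1.82 ± 0.762 FPKM. In all 3 genes the ADX+ADR mean lay within 1.5 times of the sham mean and every injected mean was above that of ADX. The 3 genes were picked among those called lower in ADX, which favours such an order. Nnt was measured in both injected groups, unlike in ADX, so that injection and substrain cannot be told apart here. Erg, a gene higher in ADX, was at 9.38 ± 0.689, 5.71 ± 0.625, 3.55 ± 0.391 and 5.27 ± 0.324 FPKM.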

How the data were processed

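Muscle of 47 mice was sequenced (60 bp single-end reads, 25 M per library on average, per the labels' protocols). Reads were processed by the authors with GRCm38 as genome build, and the tools listed, per the submitters' processing notes, are edgeR 3.30.0, featureCounts 1.6.2, HISAT2 2.1.0, Trim Galore 0.5.0 and FastQC 0.11.8. The authors deposited log2 values of FPKM for 13500 genes, whose lowest value of -6.64 fits an offset of 0.01 FPKM. The table holds no counts, so that no counting intervals are given, and 10102 values in 1389 genes are at 0 FPKM.

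Limma 3.58.1 (R 4.3.3) was fitted to the deposited log2 values with 1 mean for each of 12 groups, shared spread (35 residual degrees of freedom) and an eBayes trend, for 12000 genes with at least 1 FPKM in at least 3 libraries. Contrasts gave the WT effect at ZT0 and its differences from the effects at ZT12 and in RE-RE. The test was two-sided with Benjamini-Hochberg adjustment, and the fit was tested on simulated data. All p-values named adjusted come from it. The p-values measure the spread between libraries labelled as separate samples. Promoter letters were searched with Python 3 in RefSeq sequences of GRCm38.p6. The members and gene lists were chosen with earlier results of these data known. Genes named were, first, the 10 largest called rises and falls with no 0 in the 7 libraries, no overlap and at least 5 FPKM in the higher group, then genes at 0 in every library of 1 group with at least 3 FPKM in every library of the other, members of the lists with the smallest p-values or a known role, and the 5 called differences with the smallest p-values in each direction and contrast. A few further members chosen in this way are left unreported. Alternatives were the offset, the filter, equal medians, only the groups compared, age as a covariate, no genes at 0, a robust prior, a replicate block and each library left out.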

Additional observations from a re-analysis of the deposited data

Results flagged for a closer look

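In 6 of the 185 genes looked at, 1 of the 4 WT sham libraries at ZT0 lay far from the other three, its gap to the nearest of them being above the critical share of the whole range in Dixon's test, which chance gives in about 1 in 20 groups. Sham replicate 4 was this library for Ppara (2.96 FPKM, high), Dbp (11.9 FPKM, with the others listed at 0) and Adipoq (0.677 FPKM, low). For Oxct1 it was replicate 1 (182 FPKM, high), for Rplp0 replicate 2 (182 FPKM, high) and for Myh11 replicate 3 (8.10 FPKM, low). The log2 change of Ppara, Oxct1, Rplp0 and Myh11 stayed called without the library concerned.

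The effect at ZT0 differed from that at ZT12 by the test of the difference itself (limma, Benjamini-Hochberg adjusted) in 13 genes of the text. On the log2 scale it was higher at ZT0 for Per2 (2.31), Nfkbia (1.68), Sult1a1 (1.55), Serinc3 (0.70), Tns2 (0.66), Snrk (0.64) and Tef (0.56). It was lower for Tacc2 (-1.33), Ypel2 (-1.31), Dyrk2 (-0.98), Ankrd33b (-0.74), Clock (-0.65) and Coq8a (-0.62). Tests of the difference between WT and RE-RE passed in 16 genes of the text. The effect was lower in WT for Plin3 (-4.64), Tacc2 (-2.44), Ppara (-2.37), Ckmt2 (-1.32), Slc38a10 (-0.88), Lpin1 (-0.78), Dmac2 (-0.70), Vegfb (-0.69), Mdh1 (-0.69) and Esrra (-0.64). It was higher in WT for Anxa7 (0.62), Pecam1 (0.47), Tbrg1 (0.42), S100a16 (0.41), Jak1 (0.40) and Ebna1bp2 (0.40). Most of these genes were picked for small p-values of the same test, so that the counts are no measure of how frequent such differences are.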

How the results depend on the processing

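The number of genes called in WT ADX against WT sham at ZT0 was 3838, and 2130 when the model held the groups compared alone, so that fewer samples set the spread. Leaving out 1 library at a time gave 2760 to 3781 genes. For the ZT0 minus ZT12 difference the number was 185, with 70 for only the groups compared and 118 to 233 with 1 library left out, the lowest without WT sham replicate 8 at ZT12. For the WT minus RE-RE difference it was 1280, with 952 to 1389 when 1 library was left out. Other alternatives kept each number within 1.5 times. Leaving out the WT sham libraries at ZT0 that shared no exact low values is the same as leaving out replicate 4. Correlations of same-numbered WT ADX and sham libraries at ZT0 were 0.18, -0.053 and 0.153, and those of the other pairs were -0.182 to 0.124. They cannot settle whether replicate numbers pair the animals. With the replicate number as a block, in a model of only the groups compared, 7, 4 and 940 genes were called in the 3 comparisons.

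Of the 136 called genes named, 110 kept the call under every alternative but the block and none reversed, while 24 lost it with only the groups compared and 8 without WT ADX replicate 3. With the block, 4 of the 136 kept the call and none reversed. Changes of genes that were not called crossed 0 with 1 library left out for Acta1 (-0.20 to 0.063), Adipoq (-0.28 to 0.37), Bhlhe40 (-0.11 to 0.083), Ckm (-0.11 to 0.074), Csrp3 (-1.42 to 0.23), Kdr (-0.015 to 0.066), Ldha (-0.037 to 0.12), Myh4 (-0.044 to 0.20), Nrf1 (-0.030 to 0.13), Pdgfra (-0.055 to 0.28), Pdk4 (-0.15 to 0.52), Pygm (-0.18 to 0.017), Tnnt3 (-0.081 to 0.053), Trim63 (-0.19 to 0.095), Tsc22d3 (-0.15 to 0.061), Ucp3 (-0.030 to 0.52) and mt-Nd3 (-0.51 to 0.0053). They also did so with the block for Adipoq (-0.28), Bhlhe40 (0.033), Ckm (-0.028), Pdk4 (-0.15) and Ucp3 (-0.030), with equal medians for Ckm (-0.020) and Kdr (-0.0075), and with age as a covariate for Csrp3 (1.30) and Kdr (-0.0043). The WT minus RE-RE difference of Ppargc1a crossed 0 with 1 library left out (-0.13 to 0.077), on log2(FPKM + 1) (-0.0077) and with equal medians (-0.013). The cause was not tested. Changes near 0 FPKM cannot be resolved without counts, and 3 against 4 animals limit the precision.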
